A study of Homo sapiens with 6 samples.

Results

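Translation initiation factors bring mRNA, initiator tRNA and the ribosomal subunits together at the start codon. Their genes were taken here as those whose symbol starts with EIF1, EIF2, EIF3, EIF4, EIF5 or EIF6, leaving out the EIF2AK, EIF2C (Argonaute), EIF4EBP1 and EIF4EBP2 genes and Y-linked copies. This rule, which uses no measured value, gave 47 of the 18665 genes that a probe of the array named, with 70 probes between them. For 42 of the 47 genes, 3 or more of the 6 arrays detected a probe (detection p under 0.01), and these 42 were tested among 8968 genes.

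In the known order of events, eIF2 delivers initiator tRNA to the small ribosomal subunit as a complex with GTP, and eIF1, eIF1A, eIF5 and the many-subunit factor eIF3 assemble on that subunit. The eIF4F complex, made of the cap-binding protein eIF4E, the scaffold eIF4G and the RNA helicase eIF4A, recruits the mRNA, after which the subunit scans to the start codon and eIF5B joins the large subunit. eIF2B reloads eIF2 with GTP, and phosphorylation of eIF2 blocks that step and sets off the integrated stress response, while mTOR signalling controls eIF4F through the 4E-binding proteins. TCTP, the product of TPT1, is itself encoded by an mRNA of the 5′TOP class, whose translation follows mTOR, and the protein has been tied to the elongation factor eEF1A and to growth control.

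The cells were LNCaP, an androgen-responsive line from a lymph node metastasis of prostate cancer. Cells of the first group (3 samples) received 100 nM siRNA against TCTP and those of the second (3 samples) 100 nM siRNA against luciferase (Luc), which human cells lack. Both were harvested at 72 h. Total RNA was amplified to biotin-labelled cRNA, which was hybridised to Illumina HumanWG-6 v3 arrays. Each siRNA was a single sequence, and no untransfected or mock-transfected sample was part of the comparison. The series record calls the samples of a group biological replicates, but separate transfection days are not given in the sources used here, so that p-values measure only the spread between these samples, which may be technical.

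The targeted gene was examined first. On the TPT1 probe ILMN_1789614, the normalised log2 signal was 12.25, 12.47 and 12.39 with TCTP siRNA, against 12.95, 13.17 and 13.23 with Luc siRNA. The groups did not overlap, and the signal with TCTP siRNA was 59.6% of that with Luc siRNA (log2 change -0.75, SE 0.11, limma adjusted p = 0.00331 over the 13484 detected probes). On the brighter probe ILMN_2094718 the values were 13.92, 13.83 and 14.05 with TCTP siRNA and 14.22, 13.98 and 14.17 with Luc siRNA, which overlap (log2 change -0.19, limma adjusted p = 0.471). GAPDH, a glycolytic enzyme, had a log2 change of 0.04 on its brightest probe (limma adjusted p = 0.889 over the detected probes). Its other detected probes gave 0.10 and 0.092, neither called.

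Array quality was similar in both groups. Unnormalised median intensities were 35.6 to 39.8 with TCTP siRNA and 38.0 to 43.4 with Luc siRNA, and 12828 to 13741 probes per array were detected. Correlations between arrays were 0.984 to 0.996. All 8 luminal prostate markers that had a probe were detected on every array, and the 3 basal, 6 leukocyte and 6 fibroblast markers with a probe were detected on none. The summed linear signal of the luminal markers was 18075 to 18981 with TCTP siRNA and 20199 to 22282 with Luc siRNA, without overlap, and the part of this in the results below was not tested. Of 3 endothelial markers, 1 (VWF) was detected on every array, and their summed signal was 378 to 399 with TCTP siRNA and 408 to 483 with Luc siRNA, whose part in the results was not tested either. The fibroblast markers, though detected on no array, also summed without overlap, to 392 to 402 with TCTP siRNA and 403 to 414 with Luc siRNA. The sums of the basal and of the leukocyte markers overlapped between groups. In such bulk samples, fewer cells that express a gene and less RNA per cell cannot be told apart.

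The first bases of the mRNAs are shown here because TPT1 and several initiation factors belong to the 5′TOP class, in which the transcript begins with a C followed by further C or T bases. Each window holds 10 bases before and 20 bases from the start that RefSeq annotates on GRCh38.p14, in the sense of the gene, and capitals mark the unbroken run of C and T that begins with a C at the start. TPT1 lies at chr13:45341164-45341193 on the minus strand. Of the members with a long run, EIF3F lies at chr11:7987327-7987356 (plus), EIF4B at chr12:53006446-53006475 (plus), EIF4A2 at chr3:186783567-186783596 (plus), EIF2A at chr3:150546777-150546806 (plus) and EIF3D at chr22:36529147-36529176 (minus). EIF4A1, the close paralog of EIF4A2, lies at chr17:7572815-7572844 (plus) and is shown as a member whose run ends after 3 bases.
TPT1: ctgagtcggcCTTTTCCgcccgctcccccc
EIF3F: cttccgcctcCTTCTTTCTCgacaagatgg
EIF4B: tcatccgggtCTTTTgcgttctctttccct
EIF4A2: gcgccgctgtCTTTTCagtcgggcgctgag
EIF2A: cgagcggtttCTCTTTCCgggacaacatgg
EIF3D: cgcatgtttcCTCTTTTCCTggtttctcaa
EIF4A1: ggcactccgcCCTagtttctaaggatcatg

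A run of at least 5 bases, read on the sense strand only and exactly at the annotated start, was present at 9 of the 36 tested members that matched the table, which is 25%. These were EIF2A, EIF2D, EIF2S3, EIF3D, EIF3F, EIF3K, EIF3M, EIF4A2 and EIF4B. The same run stood at 1429 of the 35116 promoters in the table (4.07%) and at 595 of the 7476 tested genes with a start there (7.96%). EIF2S2, EIF3A, EIF3E, EIF3G, EIF3H and EIF3L were not matched. A gene with several annotated starts was counted if any of them had the run, so the shares of genes are not of the same kind as the share of promoters. A run is a description of the letters at an annotated start and not a measured transcript end.

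Setting TCTP siRNA cells against Luc siRNA cells asked which mRNAs of the initiation machinery differed after TCTP was reduced. None of the 42 tested members was called lower and none higher by limma at an adjusted p under 0.05, where 2.55% of all tested genes were called (1.52% lower and 1.04% higher). At an unadjusted p under 0.05 there were 3 members, EIF4A2, EIF2S2 and EIF3J, all with lower values in TCTP siRNA cells, which is 7.14% of the members against 15.6% of all genes in either direction and 8.05% lower. The smallest adjusted p of a member was 0.225. The groups did not overlap for 5 members, or 11.9%, against 21.2% of all genes (10.8% lower and 10.4% higher). Of these members, EIF4A2, EIF2S2, EIF3J and EIF1 were lower with TCTP siRNA and EIF4ENIF1 was higher.

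The changes were small and lay on both sides of 0. With TCTP siRNA 20 members had a log2 change below 0 and 22 above 0, and the median was 0.018, against 0.0011 over all genes. The quartiles of the members were -0.10 and 0.065, against -0.11 and 0.11 for all genes. The changes ran between -0.29 (EIF4A2) and 0.15 (EIF1AX), neither past the threshold. The 95% confidence intervals, not adjusted for the number of genes, bound what these arrays leave room for. On the brightest probe of each member, the lowest bound was -0.54, a signal 1.45-fold lower with TCTP siRNA. The highest was 0.47, a signal 1.39-fold higher. Another detected probe of EIF4G2 had an upper bound of 0.51. The median half-width of an interval was 0.24 log2 units.

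**Figure D1:**
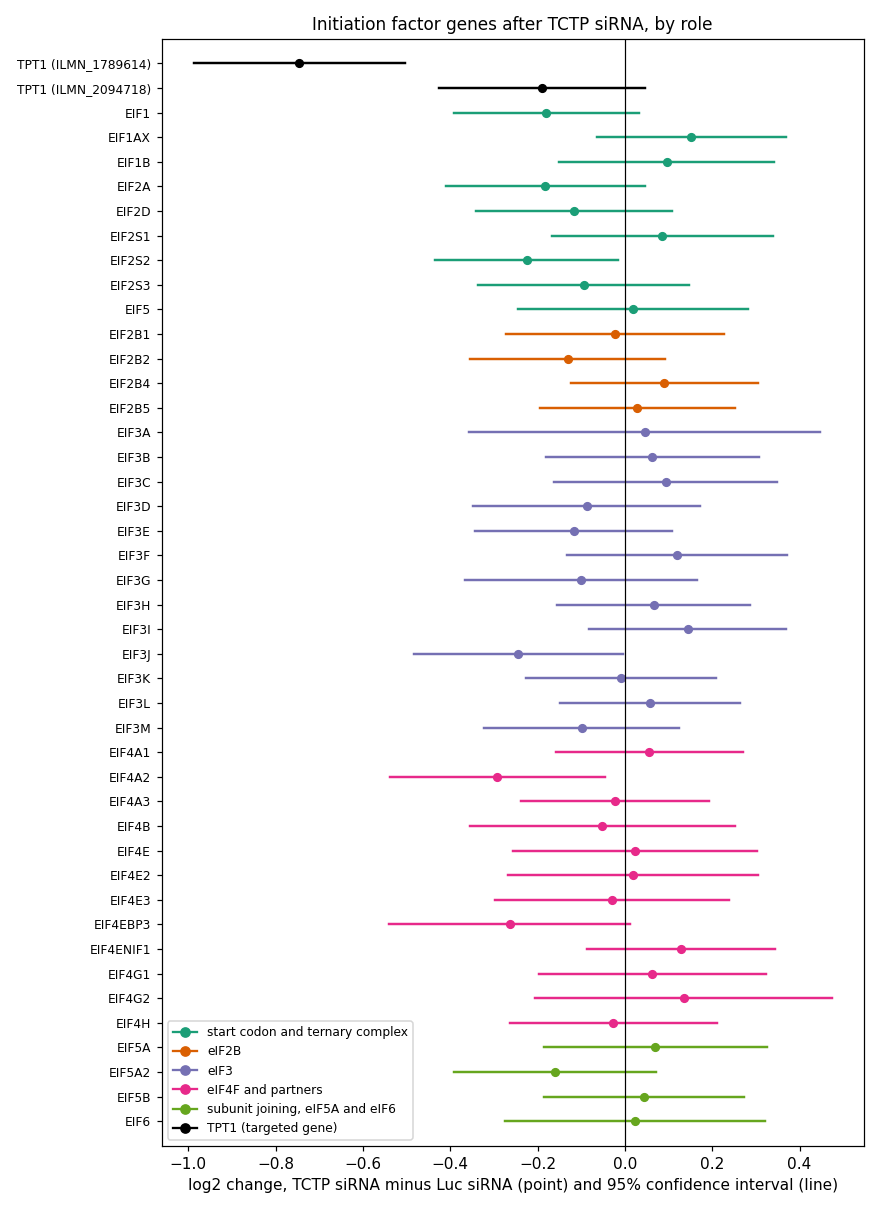
Log2 change of TCTP siRNA minus Luc siRNA (points, horizontal axis) with its 95% confidence interval (lines) for both probes of the targeted gene TPT1 and the 42 tested initiation factor genes, coloured by role (n = 3 arrays per group). The TPT1 probe at -0.75 lies left of every initiation factor, whose changes run between -0.29 and 0.15 and whose intervals cross 0 in all but EIF4A2, EIF2S2 and EIF3J. The brighter TPT1 probe, at -0.19, lies within the range of the initiation factors, and its interval crosses 0.

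Among the factors that carry the initiator tRNA and select the start codon, 9 of 10 genes with a probe were tested, with a median log2 change of -0.095, none called and EIF2S2 alone at an unadjusted p under 0.05. EIF2S2 encodes the beta subunit of eIF2. Its log2 signal was 6.27, 6.31 and 6.36 with TCTP siRNA and 6.54, 6.62 and 6.46 with Luc siRNA. All 3 TCTP siRNA arrays lay below all 3 Luc siRNA arrays, at 85.5% of the Luc siRNA signal (log2 change -0.23, SE 0.097, limma adjusted p = 0.276). The only probe of EIF2S2 was detected on all 6 arrays, but its signal was low. Under the other ways of processing all arrays, given below, the EIF2S2 change ran between -0.29 (with neqc) and -0.18. The alpha subunit EIF2S1, whose phosphorylation starts the stress response, and the gamma subunit EIF2S3, which binds the tRNA, overlapped between groups. EIF2S3 was at 11.11, 10.75 and 10.91 with TCTP siRNA and 11.05, 11.07 and 10.93 with Luc siRNA (log2 change -0.095, which ran between -0.19 and -0.0083 with 1 array left out and was -0.0083 without the second TCTP siRNA array). EIF2S1, chosen after its values were seen, had a log2 change of 0.086.

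EIF1 encodes the factor that holds the scanning ribosome to the correct start codon. It stood at 12.07, 12.05 and 12.17 with TCTP siRNA and 12.22, 12.25 and 12.36 with Luc siRNA. The groups did not overlap, by the narrow gap between 12.17 and 12.22 (log2 change -0.18, SE 0.098, limma adjusted p = 0.416). Its paralog EIF1B had 9.14, 9.21 and 9.33 with TCTP siRNA against 8.95, 9.14 and 9.31 with Luc siRNA, overlapping values with a log2 change of 0.095 that was 0.0036 without the first Luc siRNA array and 0.19 without the third. EIF1AX, the X-linked gene of eIF1A, showed the largest upward value of the members, at 9.15, 9.25 and 9.22 with TCTP siRNA and 8.97, 9.03 and 9.17 with Luc siRNA. The Luc siRNA array at 9.17 lay among those of TCTP siRNA (log2 change 0.15, SE 0.10, limma adjusted p = 0.513).

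A pair of genes for tRNA delivery outside the eIF2 complex overlapped between groups. EIF2A, which can bring initiator tRNA without eIF2, was at 10.27, 10.27 and 10.40 with TCTP siRNA and 10.62, 10.35 and 10.52 with Luc siRNA (log2 change -0.18, limma adjusted p = 0.443). The third TCTP siRNA array and the second Luc siRNA array crossed. EIF2D, a factor of reinitiation and recycling, was at 7.81, 7.91 and 7.95 with TCTP siRNA and 8.14, 7.99 and 7.89 with Luc siRNA, also crossing (log2 change -0.12). EIF5, the GTPase-activating protein of eIF2, had a log2 change of 0.018 and was chosen after its values were seen.

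Of the 5 subunits of eIF2B, the exchange factor of eIF2, 4 had a probe and were tested, with a median log2 change of 0.0029 and none called. EIF2B2, the beta subunit, was at 9.32, 9.34 and 9.21 with TCTP siRNA and 9.47, 9.51 and 9.28 with Luc siRNA (log2 change -0.13, limma adjusted p = 0.592). EIF2B4, the delta subunit, was at 10.45, 10.35 and 10.29 with TCTP siRNA and 10.35, 10.25 and 10.22 with Luc siRNA (log2 change 0.090). Both overlapped between groups, as did EIF2B1 and EIF2B5, whose changes lay between those of EIF2B2 and EIF2B4. EIF2B3 was not analysed here.

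The subunits of eIF3, the scaffold of the preinitiation complex, gave 13 tested genes with a median log2 change of 0.046. None was called and 1, EIF3J, had an unadjusted p under 0.05. EIF3J encodes a loosely attached subunit that acts near the decoding site. Its log2 signal was 8.48, 8.46 and 8.65 with TCTP siRNA against 8.95, 8.68 and 8.69 with Luc siRNA. The groups did not overlap, but the third TCTP siRNA array was within 0.1 log2 units of the lower pair of Luc siRNA arrays (log2 change -0.24, SE 0.11, 84.4% of the Luc siRNA signal, limma adjusted p = 0.306). EIF3I, a subunit of the eIF3 core, was at 11.54, 11.53 and 11.31 with TCTP siRNA and 11.27, 11.40 and 11.28 with Luc siRNA, and the third TCTP siRNA array fell among the controls (log2 change 0.14, limma adjusted p = 0.555).

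Further eIF3 subunits overlapped between groups. EIF3E, at 13.07, 13.18 and 13.05 with TCTP siRNA and 13.35, 13.23 and 13.08 with Luc siRNA, had a log2 change of -0.12. EIF3F, at 11.52, 11.83 and 11.66 with TCTP siRNA and 11.73, 11.41 and 11.52 with Luc siRNA, had one of 0.12. Both are counted among the 5′TOP mRNAs, and their values ran in opposite directions. EIF3M, a subunit with a PCI domain, had 11.58, 11.70 and 11.54 with TCTP siRNA and 11.73, 11.80 and 11.58 with Luc siRNA (log2 change -0.099). EIF3G, an RNA-binding subunit, had 11.06, 11.22 and 10.74 with TCTP siRNA and 11.04, 11.17 and 11.12 with Luc siRNA, so that its change of -0.10 rested on the third TCTP siRNA array and turned to 0.032 without it. EIF3B, the core subunit that scaffolds the others, had 12.84, 12.45 and 12.65 with TCTP siRNA and 12.61, 12.52 and 12.61 with Luc siRNA, and its change of 0.062 turned to -0.033 without the first TCTP siRNA array. The remaining subunits EIF3D, EIF3H, EIF3K and EIF3L, which also overlapped, had changes of -0.088, 0.066, -0.0086 and 0.057.

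The spread of the members was close to that of other genes. Their median within-group SD was 0.135 log2 units, against 0.131 for all genes. The steadiest member was EIF3L with an SD of 0.045 and the least steady EIF3A with 0.357, both chosen after their values were seen. EIF3A, the largest eIF3 subunit, was at 9.85, 9.95 and 10.64 with TCTP siRNA and 10.34, 9.82 and 10.16 with Luc siRNA, a change of 0.046 that lies far within this spread. EIF3C had a log2 change of 0.093, and since EIF3C and EIF3CL are near-identical copies, its signal cannot be assigned to EIF3C alone.

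**Figure D2:**
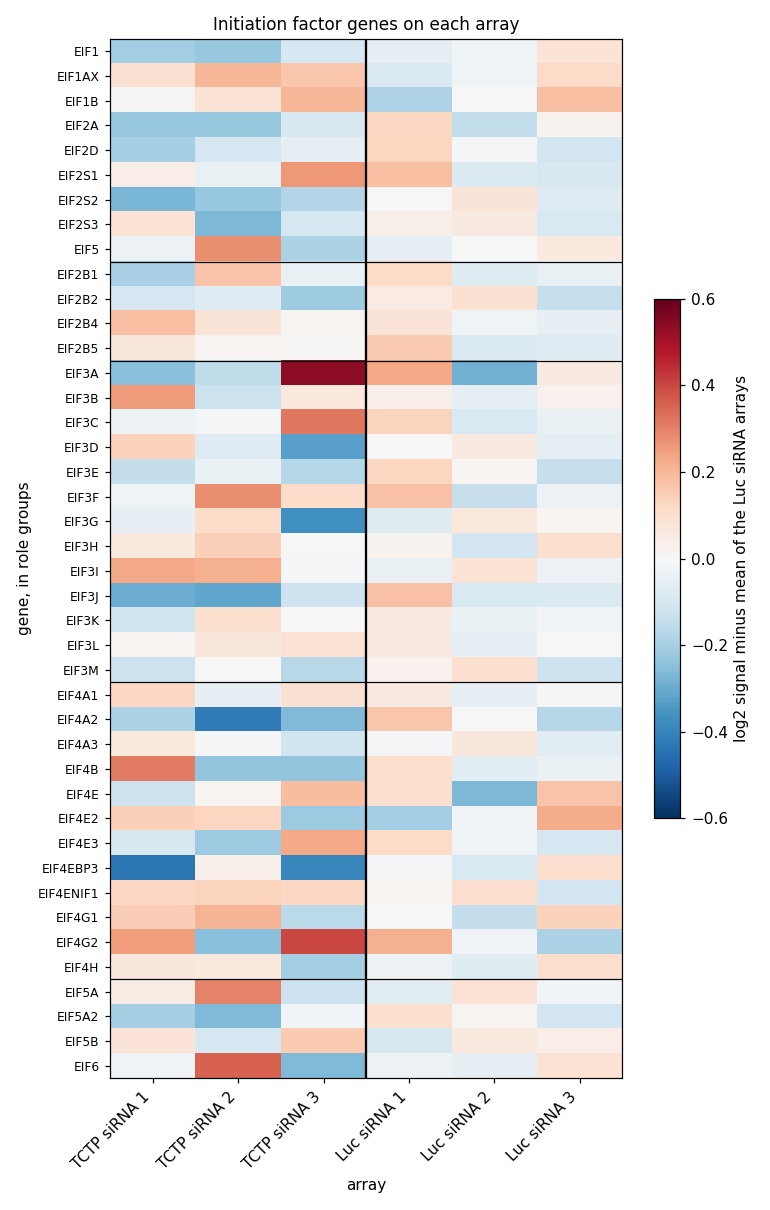
Log2 signal of each of the 42 tested initiation factor genes (rows, in role groups) on each of the 6 arrays (columns, TCTP siRNA left and Luc siRNA right of the line), minus the mean of the gene's Luc siRNA arrays (colour scale in log2 units). EIF1, EIF2S2, EIF3J and EIF4A2 are below the control mean on all 3 TCTP siRNA arrays, as are EIF2A, EIF2B2, EIF2D, EIF3E, EIF3M and EIF5A2. EIF3A and EIF4G2 are among the genes that differ in sign among the TCTP siRNA arrays.

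The eIF4F complex and its partners gave 12 tested genes with a median log2 change of -0.0025, none called and 1 with an unadjusted p under 0.05. That gene, EIF4A2, encodes a paralog of the eIF4A helicase that is also tied to mRNA repression, and it had the smallest p of all members. Its log2 signal was 12.70, 12.47 and 12.63 with TCTP siRNA and 13.06, 12.89 and 12.72 with Luc siRNA. The groups were separated only by the gap between 12.70 and 12.72, and the TCTP siRNA signal was 81.7% of that with Luc siRNA (95% confidence interval 68.8% to 96.9%, log2 change -0.29, SE 0.114, limma adjusted p = 0.225). EIF4A1, the main helicase, chosen here as its paralog after the values were seen, was at 13.88, 13.71 and 13.85 with TCTP siRNA and 13.81, 13.71 and 13.75 with Luc siRNA (log2 change 0.056). Whether the changes of the paralogs differ was not tested.

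EIF4EBP3, a 4E-binding protein that keeps eIF4E from eIF4G, was at 8.09, 8.55 and 8.13 with TCTP siRNA and 8.51, 8.43 and 8.63 with Luc siRNA. The second TCTP siRNA array lay among the controls and the other arrays of that group well below them (log2 change -0.26, SE 0.128, limma adjusted p = 0.344). Without that array the change was -0.41 and the adjusted p 0.0534. EIF4ENIF1, the transporter that carries eIF4E into the nucleus and to processing bodies, was at 7.35, 7.36 and 7.35 with TCTP siRNA and 7.24, 7.33 and 7.11 with Luc siRNA, the only member without overlap whose values were higher with TCTP siRNA (log2 change 0.13, limma adjusted p = 0.583).

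Scaffold and accessory genes of eIF4F did not separate the groups. EIF4G2, a relative of eIF4G that does not bind eIF4E, was at 12.53, 12.03 and 12.67 with TCTP siRNA and 12.49, 12.25 and 12.08 with Luc siRNA (log2 change 0.13). That change was 0.33 without the second TCTP siRNA array and 0.0014 without the third. EIF4H, a cofactor of the helicase, was at 11.09, 11.07 and 10.81 with TCTP siRNA and 10.99, 10.95 and 11.12 with Luc siRNA (log2 change -0.027). The cap-binding protein EIF4E, chosen after its values were seen, was at 6.36, 6.50 and 6.67 with TCTP siRNA and 6.58, 6.22 and 6.66 with Luc siRNA, with a log2 change of 0.024. The EIF4E signal was low, and a second probe of the gene was detected on no array. The remaining genes of the group also overlapped, with changes of -0.023 for EIF4A3, the helicase of the exon junction complex, -0.052 for EIF4B, a helicase cofactor, 0.063 for the scaffold EIF4G1, and 0.018 and -0.029 for the cap-binding relatives EIF4E2 and EIF4E3. EIF4G3 was not analysed here.

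Subunit joining, eIF5A and eIF6 gave 4 tested genes with a median log2 change of 0.033, none called and none at an unadjusted p under 0.05. EIF5A2, the paralog of EIF5A that is gained in several cancers, was at 6.01, 5.95 and 6.19 with TCTP siRNA and 6.31, 6.23 and 6.10 with Luc siRNA, with detection of the probe on 5 of the 6 arrays (log2 change -0.16, limma adjusted p = 0.517). EIF5A, the hypusine-bearing factor that helps ribosomes past difficult peptide bonds, was at 11.01, 11.26 and 10.84 with TCTP siRNA and 10.90, 11.05 and 10.95 with Luc siRNA (log2 change 0.070). Its sign rested on the second TCTP siRNA array, without which the change was -0.043. EIF5B, the GTPase of subunit joining, and EIF6, which keeps free large subunits from joining too early, had changes of 0.043 and 0.024.

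**Figure D3:**
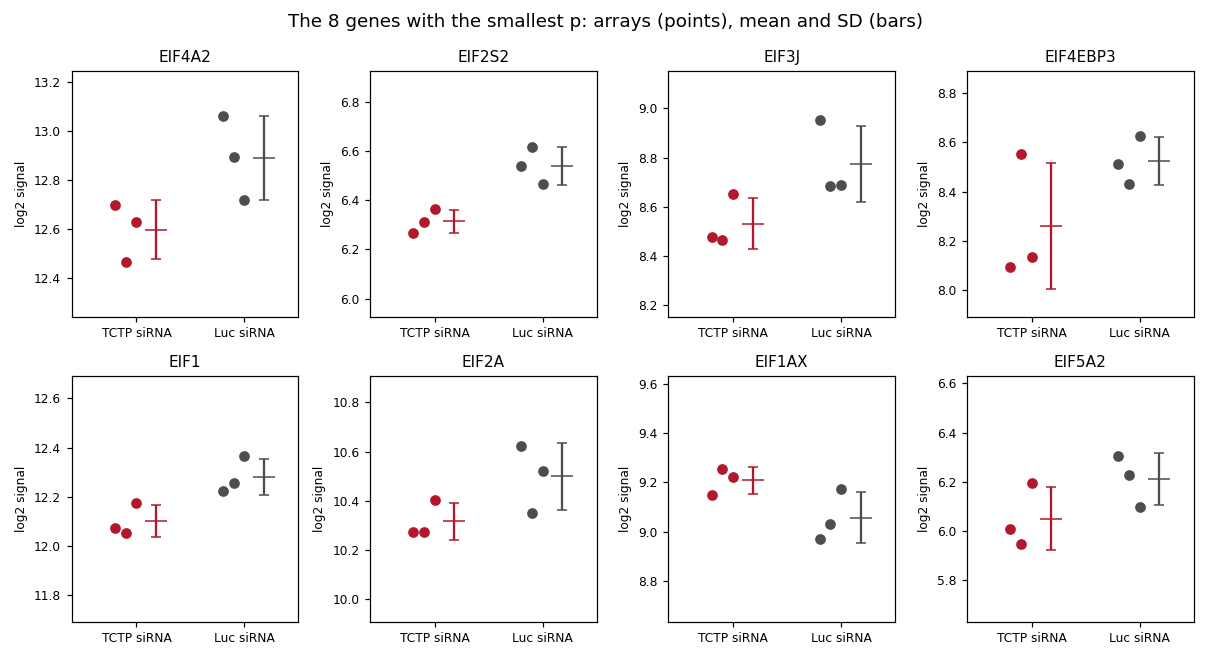
Log2 signal on each array (points) with the mean and SD (bars, n = 3) for the 8 initiation factor genes with the smallest p, TCTP siRNA left and Luc siRNA right in each panel, where every vertical axis spans the same number of log2 units. EIF4A2, EIF2S2, EIF3J and EIF1 do not overlap between groups, and in EIF4EBP3 the second TCTP siRNA array lies among the Luc siRNA arrays.

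Several members were measured by more than 1 detected probe. There were 9 such genes with 12 pairs of probes, and in 5 pairs, of EIF1AX, EIF2B4, EIF3B, EIF3M and EIF4H, the changes had opposite signs. For EIF1AX the representing probe gave a log2 change of 0.15 and the other -0.019. For EIF2B4 the changes were 0.090 and -0.081, and for EIF3M -0.099 and 0.016. Exact two-sided permutation p-values of the pairs lay between 0.2 and 1, and between 0.9 and 1 adjusted over the 12 pairs. Since 3 against 3 arrays allow no p below 0.1, this test could not have called any pair, and it does not show that the probes of a gene act alike. The 3 probes of EIF4G2 all gave values above 0, at 0.13, 0.058 and 0.24.

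**Figure D4:**
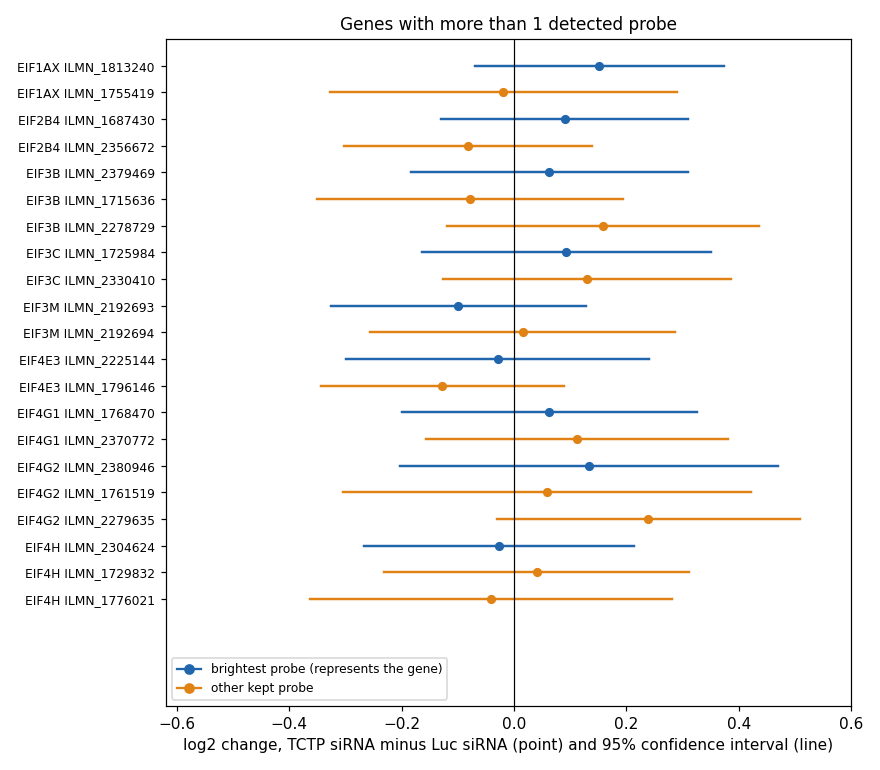
Log2 change of TCTP siRNA minus Luc siRNA (points) with its 95% confidence interval (lines) for each detected probe of the 9 initiation factor genes with more than 1 such probe, the brightest in blue and the others in orange (n = 3 arrays per group). Every interval includes 0, and probes of EIF1AX, EIF2B4, EIF3B, EIF3M and EIF4H lie on either side of it.

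The remaining 5 of the 47 genes were not tested. The probes of EIF1AD, EIF4E1B, EIF5AL1 and the pseudogene EIF3IP1 were detected on 0 arrays, and that of EIF3J-DT, a long non-coding RNA beside EIF3J, on 1. Of the 70 probes of all 47 genes, 52 were detected on all 6 arrays and 15 on none.

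The members with a 5′TOP-like start, whose sequences are given above, had mostly values below 0, given as a description with no test. Of the 9, 8 had a log2 change below 0 and EIF3F alone was above 0, with a median of -0.095 against 0.028 in the other members that matched the table. Below 0 were 47.6% of all tested members and 49.7% of all genes. None was called by limma, and EIF4A2 alone of the 9 had an unadjusted p under 0.05. Over the 595 tested genes with such a start the median was -0.011, and 13 of them (2.18%) were called, against 2.55% of all genes. A short list of members taken here as 5′TOP mRNAs, EIF3E, EIF3F, EIF3H and EIF4B, had a median of 0.0068, with 2 below 0 and 2 above. That list was set by hand and may leave out other members of the class. It shares EIF3F and EIF4B with the 9 genes above, so the sets are not separate.

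The regulators of eIF2 were looked at next, from a list of its kinases and of the phosphatase that reverses them. Of 9 genes 8 were tested, none was called and EIF2AK2 alone had an unadjusted p under 0.05 (12.5%, against 15.6% of all genes). EIF2AK2 encodes PKR, the interferon-induced kinase that double-stranded RNA activates. It was at 9.08, 9.08 and 8.97 with TCTP siRNA and 9.24, 9.41 and 9.38 with Luc siRNA, without overlap (log2 change -0.30, SE 0.0997, limma adjusted p = 0.141). PPP1CB, a catalytic phosphatase subunit, had a log2 change of -0.25.

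Downstream of eIF2, the 16 listed genes of the integrated stress response were all tested, and none was called. Of these, 14 (87.5%) had a log2 change below 0, against 49.7% of all genes. The groups did not overlap for 6 (37.5%), all lower with TCTP siRNA, against 21.2% of all genes in either direction and 10.8% lower. The median was -0.17, against 0.0011 for all genes. With median scaling the median was -0.11, against 0.034 for all genes, and 12 genes were below 0. In the list 3 genes, SLC7A5, TRIB3 and ASNS, had an unadjusted p under 0.05, which is 18.75% against 15.6% of all genes. SLC7A5, a transporter of large neutral amino acids, was at 7.31, 7.11 and 7.04 with TCTP siRNA and 7.50, 7.36 and 7.59 with Luc siRNA (log2 change -0.33, SE 0.111, limma adjusted p = 0.148). TRIB3, a pseudokinase induced in that response, was at 10.55, 10.39 and 10.68 with TCTP siRNA and 10.94, 10.75 and 10.82 with Luc siRNA (log2 change -0.30, limma adjusted p = 0.191). ASNS, asparagine synthetase, had a log2 change of -0.27 on its brightest probe, without overlap. On a second detected probe it was -0.59 with overlapping groups, not called either.

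ATF4, the transcription factor whose translation rises when eIF2 is phosphorylated, had 3 detected probes and was chosen after its values were seen. Its brightest probe gave a log2 change of -0.09 and a second one -0.14, neither called. The dimmest, ILMN_1783394, was at 6.42, 6.55 and 6.67 with TCTP siRNA and 6.93, 7.39 and 7.23 with Luc siRNA and was called lower (log2 change -0.64, SE 0.127, limma adjusted p = 0.0194 over the detected probes). The ATF4 call thus depends on the probe.

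Kinases, repressors and RNA partners of eIF4F formed a list of 15 genes, of which 13 were tested. None was called, while 4 lower (PABPC4, PABPC1, MKNK1 and CYFIP1) and 3 higher genes (MKNK2, RPS6KB2 and PDCD4) had an unadjusted p under 0.05. This was 53.8% of the tested genes of the list, against 15.6% of all genes (8.05% lower and 7.59% higher). The groups did not overlap for 2 lower and 2 higher genes, or 30.8%, against 21.2% of all genes. The poly(A)-binding proteins PABPC4 and PABPC1, which bridge the mRNA tail to eIF4G, had log2 changes of -0.37 and -0.25. A second detected probe gave -0.42 for PABPC4, without overlap, and -0.16 for PABPC1, with overlap, neither called. RPS6KB2, a ribosomal S6 kinase under mTOR, was at 11.13, 11.16 and 11.02 with TCTP siRNA and 10.74, 10.74 and 10.92 with Luc siRNA, without overlap (log2 change 0.31, SE 0.101, limma adjusted p = 0.142). On a second detected probe of RPS6KB2 the groups overlapped (log2 change 0.21, limma adjusted p = 0.435 over the detected probes).

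PDCD4, an inhibitor of the eIF4A helicase, was at 10.02, 9.96 and 10.11 with TCTP siRNA and 9.62, 9.82 and 9.79 with Luc siRNA on its brightest probe (log2 change 0.29, limma adjusted p = 0.173). All 3 TCTP siRNA arrays were above all 3 Luc siRNA arrays, also on the second probe, ILMN_1768004, with 7.21, 7.33 and 7.19 against 6.56, 6.78 and 6.84. That probe was called higher (log2 change 0.52, SE 0.109, limma adjusted p = 0.0279 over the detected probes). MKNK2, a kinase that phosphorylates eIF4E, had log2 changes of 0.40 and 0.43 on its probes, neither called. Without the second TCTP siRNA array MKNK2 was called higher, with a log2 change of 0.60 and a limma adjusted p of 0.0122.

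The 5 genes of scanning, recycling and reinitiation and the 2 hypusine enzymes, which modify eIF5A, gave no called gene and none at an unadjusted p under 0.05. Of these, ABCE1, the ATPase that splits ribosomes after termination, had a log2 change of -0.20 and DENR, a reinitiation factor, one of -0.15. The hypusine enzymes DHPS and DOHH had -0.15 and 0.18. Other detected probes gave -0.042 for ABCE1, 0.16 for DENR, and -0.0045 and 0.086 for DHPS. The signs for DENR and DHPS thus depend on the probe. Over all of these lists together, 44 genes were tested and limma called none, with 11 genes (25%) at an unadjusted p under 0.05 against 15.6% of all genes.

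**Figure D5:**
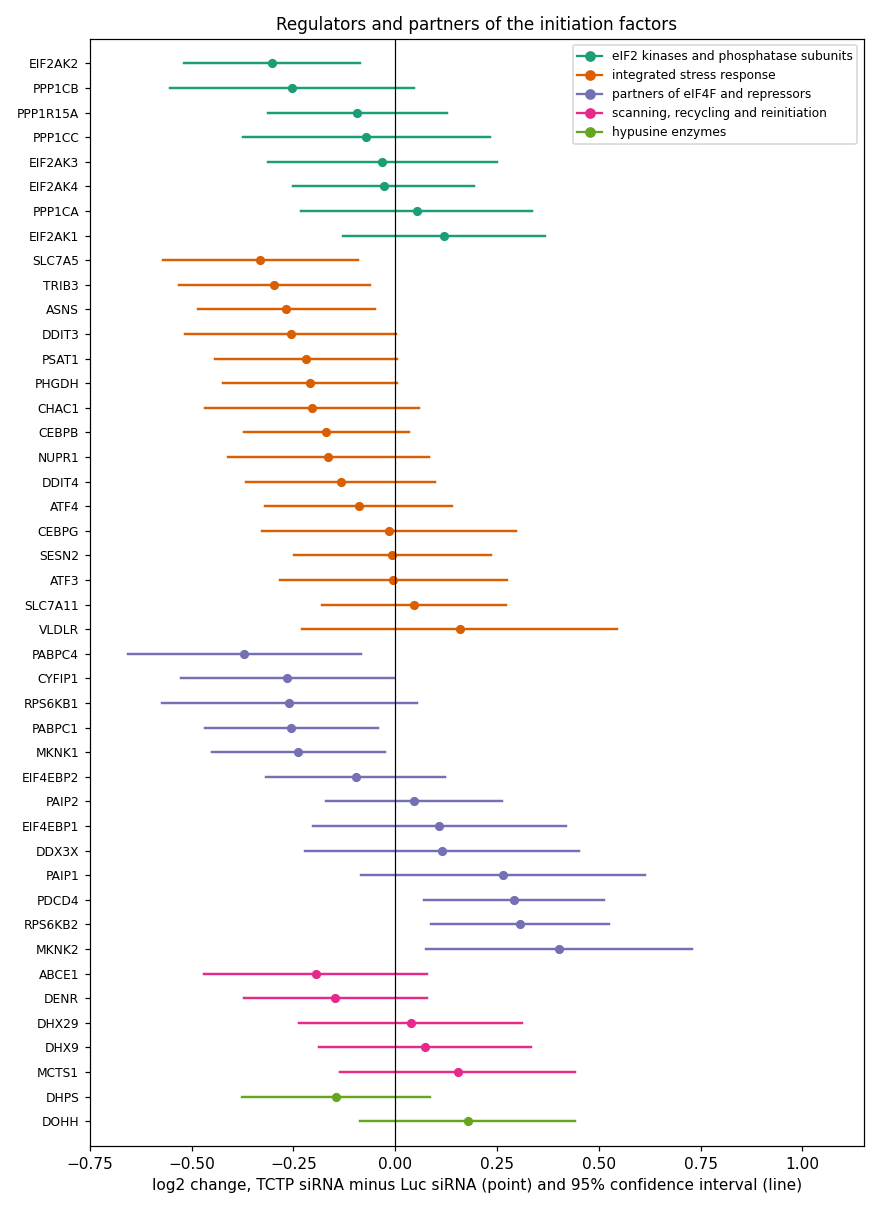
Log2 change of TCTP siRNA minus Luc siRNA (points) with its 95% confidence interval (lines) for the 44 tested regulators and partners of the initiation factors, by list and in order of change within a list (n = 3 arrays per group). In the integrated stress response list 14 of 16 genes lie below 0, whereas the partners of eIF4F lie on both sides of it.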

How the data were processed

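The authors hybridised labelled cRNA to Illumina HumanWG-6 v3 arrays. They deposited summary intensity values from BeadStudio on a linear scale and not normalized, with a detection p-value per probe. The sources used here do not give the version of BeadStudio. The authors also deposited quantile-normalized intensity values, used as an alternative. The intensities were quantile-normalized without background correction and log2-transformed (limma 3.58.1, R 4.3.3). Of 48803 probes, 27578 had 1 gene symbol (brought up to date by gene identifier with RefSeq's table of GRCh38.p14), 13 had several and 21212 had none listed. A probe was kept if 3 or more of the 6 arrays detected it at p under 0.01 (13484 probes), and the brightest kept probe represented a gene (8968 genes). Groups, taken from the labels, were compared with lmFit and eBayes, adjusting by Benjamini-Hochberg over all genes, or over all kept probes where a probe is named. Pairs of probes of a gene were compared with an exact permutation test of the per-array differences. The number of arrays limits the precision. The script was tested on simulated data. Starts were read from RefSeq's promoter table. Plots used Python 3.11.15 and matplotlib 3.10.9.

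The members and lists were chosen with earlier results of these data known. Named genes were TPT1, GAPDH, up to 20 members with the smallest p, the extremes of each role group, members whose probes differ in sign, and the 2 genes of smallest p in each list. Others are said to be chosen after their values were seen, or complete a count. These are the remaining members, ATF4, MKNK2, ASNS, PABPC4, PABPC1, MKNK1 and CYFIP1. No beadchip or scan is named in the files. The study's SAM test was not run. The alternatives were neqc (offset 16), normexp (offset 50), the authors' normalized values, cyclic loess, median scaling, 3 other filters on detection, each probe tested by itself, the mean of a gene's probes, the replicate as a block, eBayes with trend and robust, a threshold of 0.01, the platform's own symbols and each array left out.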

Additional observations from a re-analysis of the deposited data

How the results depend on the processing

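No initiation factor gene was called under any of the 20 alternatives, and the smallest adjusted p of a member (limma) ran between 0.0534 without TCTP siRNA replicate 2 (EIF4EBP3) and 0.540 with median scaling. The median log2 change of the members lay between 0.010 and 0.051 under the 14 alternatives that kept all arrays and between -0.020 and 0.031 with 1 array left out. No member had an unadjusted p under 0.05 with median scaling or without Luc siRNA replicate 1, while EIF4A2, EIF2S2 and EIF3J kept values below 0, at -0.19, -0.22 and -0.20 with the scaling and -0.21, -0.23 and -0.16 without that array. Over all genes, median scaling gave 35 lower and 17 higher calls and a threshold of 0.01 gave 56 and 33. With 1 array left out, there were 53 to 173 lower and 30 to 151 higher calls. The replicate number did not pair the samples (correlations of deviations -0.071, -0.058 and -0.40, and no array was closest to its own number). With the replicate as a block there were 73 lower and 45 higher calls, and the smallest adjusted p of a member was 0.327. Signs turned for EIF4H with median scaling (0.034) and for DENR with the mean of probes (0.0046). With 1 array left out the log2 change ran between -0.033 and 0.16 for EIF3B, between -0.043 and 0.17 for EIF5A, between -0.21 and 0.032 for EIF3G, between 0.0014 and 0.33 for EIF4G2, between 0.0036 and 0.19 for EIF1B, between -0.19 and -0.0083 for EIF2S3 and between -0.075 and 0.063 for EIF4H. The median of the integrated stress response list ran between -0.18 and -0.11 with 1 array left out, with 12 to 15 of 16 genes below 0. PDCD4 was called with the mean of its probes (0.41, limma adjusted p = 0.0440). The causes of these differences were not tested. Dim members such as EIF5A2, detected on 5 of 6 arrays, have signals near background. EIF2S2 and EIF4E, detected on all 6, were only slightly brighter.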
